A study of Rattus norvegicus with 54 samples.

Results

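The comparison followed rat liver from the newborn at postnatal day 4 (P4) to the adult at postnatal day 90 (P90). It rested on 8 of the 54 arrays of the series, 4 livers of P4 pups and 4 livers of P90 adults, and the difference was taken as P90 minus P4. All animals were Wistar rats without any treatment, the pups were in the suckling period and the adults ate standard chow. The labels call the 4 arrays of each group biological replicates, but give neither the sex of the animals, nor the litters, nor the hour at which tissue was taken. Liver tissue was frozen and homogenised, and no separation of its cells is described. Each value is therefore an average over hepatocytes, blood-forming cells, blood and supporting cells. The other 16 liver arrays, from foetal day 16, 20 and 22 (F16, F20, F22) and postnatal day 1 (P1), entered the fit to estimate the spread and are given beside the comparison as a time course.

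A rat liver at P4 is still an organ of blood formation. It also lives on milk, which is rich in fat and poor in sugar, and its hepatocytes still divide. The adult liver has given up blood formation, its hepatocytes rarely divide, and it handles a diet of starch. At puberty the pattern of growth hormone release becomes different in male and female rats, and this pattern sets the level of many cytochrome P450s, sulphotransferases and secreted proteins of the liver.

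Values are log2 signals after robust multi-array averaging (RMA), so a difference of 1 is 2-fold, and the level of a gene is not comparable with that of another gene. A gene was called where the Benjamini-Hochberg adjusted p of the limma fit was at or below 0.05. Of 14506 genes, 4274 were higher in P90 (29.5%) and 3771 were lower (26.0%), in all 55.5%. The called genes with at least a 2-fold difference were 509 higher and 760 lower, 8.75% of the genes. An 8-fold difference was reached by 69 genes upwards and by 96 genes downwards. The P4 and P90 arrays did not overlap for 6971 of the 8045 called genes. The median difference over all genes was 0.07. In the same fit 22.7% of the genes were called from F16 to F20, 37.3% from F20 to F22, 35.8% from F22 to P1 and 10.8% from P1 to P4. These intervals have very different lengths, and neighbouring intervals share the arrays of a time point. So the background against which each gene group below must be read is high: more than 1 gene in 4 was called in each direction. Among the 7655 brighter probe sets (a mean over liver above the median) 2069 were higher and 3357 lower. Counts of list members with brighter probe sets must be read against these.

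The P90 arrays were the most alike of the 6 liver groups. Over all named probe sets they correlated with each other at 0.9969 to 0.9973, the P4 arrays at 0.9944 to 0.9963, and a P4 array with a P90 array at 0.9278 to 0.9346. The label liver held in both groups. The 8 hepatocyte markers averaged 13.13 to 13.17 in the P4 arrays and 13.13 to 13.15 in the P90 arrays, and 1 of them was called higher and 1 lower. The other markers moved with age: 5 of 5 erythroid markers and 5 of 5 neutrophil markers fell, while the mean of 4 skeletal muscle markers (7.10 to 7.79 against 7.18 to 7.27) and of 4 pancreas markers (7.03 to 7.18 against 7.01 to 7.12) overlapped between the groups. In mixed tissue, fewer cells of a type and less RNA per cell cannot be told apart. The part of a changed cell make-up in any single result was not tested.

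The steepest rise was that of Cyp2c11, the main male-dependent androgen hydroxylase of rat liver. Its 4 P4 arrays read 4.41, 4.77, 4.88 and 4.67, and its 4 P90 arrays read 12.95, 12.99, 12.95 and 12.95. It rose by 8.28 on the log2 scale (SE 0.11, adjusted p = 5.4e-25), after means of 4.64 to 4.80 in the foetal livers. Hsd3b5, a steroid reductase of adult male liver, went from 5.16, 5.21, 5.16 and 4.95 to 12.76, 12.73, 12.74 and 12.75, a difference of 7.62. Both genes were near the bottom of the array's range in every pup and near its top in every adult. Only genes without overlap between the groups entered this ranking. The array's values are compressed at both ends of the range, so the true fold of such genes is not known. Dhrs7l1, a short-chain dehydrogenase, rose from 5.42 ± 0.19 to 12.59 ± 0.05 (SD, n = 4). Rup2, a secreted urinary protein of the Ly6 family, rose from 5.12 ± 0.10 to 13.15 ± 0.04, and its lowest adult array lay far above its highest pup array.

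**Figure D1:**
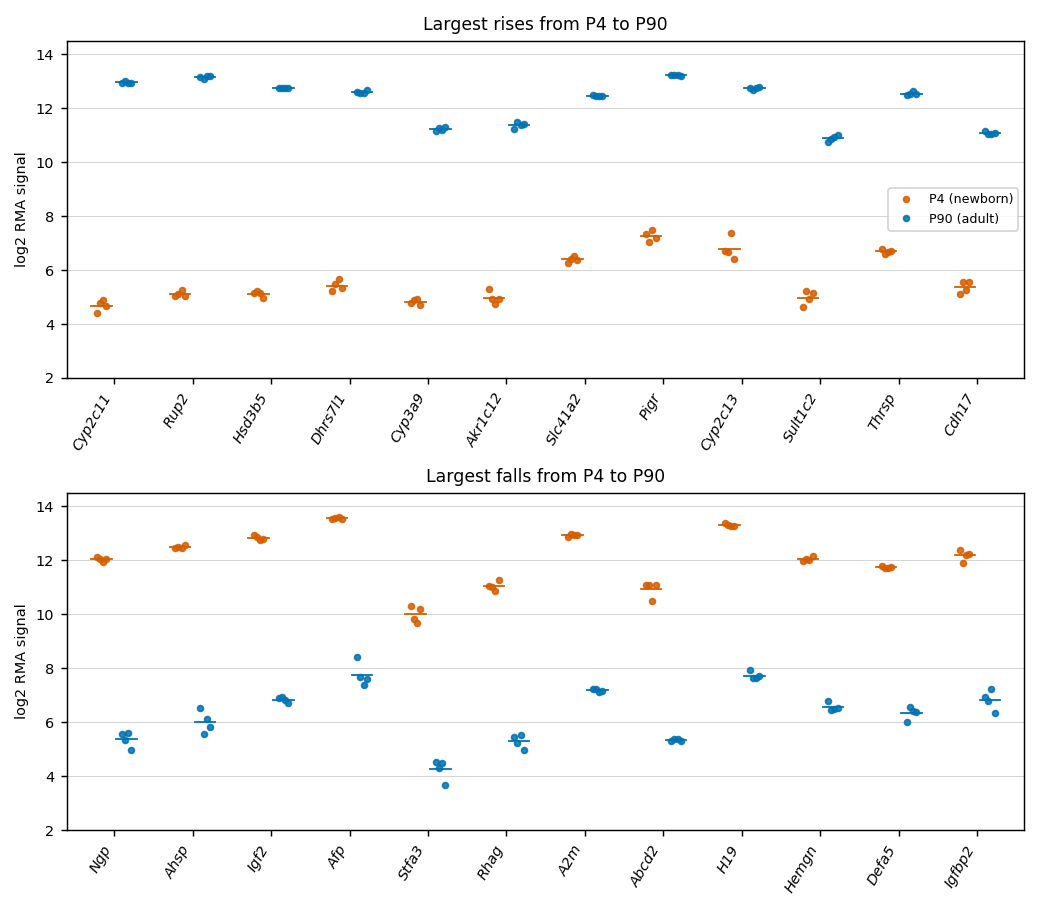
Log2 RMA signal of the 12 genes with the largest rise and the 12 with the largest fall from P4 to P90, each point 1 array (4 per group) and each line the mean of a group. For Cyp2c11 the P4 arrays sit between 4.41 and 4.88 and the P90 arrays between 12.95 and 12.99. Only genes without overlap between the groups were ranked.

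Among the 20 genes with the largest rise were enzymes and carriers of steroids, drugs and bile. Cyp3a9 rose by 6.41, Cyp2c13 by 5.95, the aldo-keto reductases Akr1c12 and Akr1c1 by 6.41 and 5.63, the sulphotransferase Sult1c2 by 5.91 and the glucuronosyltransferase Ugt2b37 by 5.50. The uptake carriers Slco1a4 and Ust5r rose by 5.69 and 5.25. Pigr, which carries immunoglobulin A across cells into bile, went from 7.32, 7.03, 7.49 and 7.20 to 13.23, 13.22, 13.21 and 13.20, a rise of 5.95. Others had other roles: Slc41a2, a magnesium transporter (6.06), Thrsp, the Spot 14 protein of fat synthesis (5.84), Cdh17, the liver-intestine cadherin (5.72), Mettl7b, a methyltransferase (5.71), Car3, a carbonic anhydrase (5.60), Tdo2, which opens the ring of tryptophan (5.54), and Stac3, known as an adaptor protein of the muscle calcium release complex (5.37). The errors were not equal: the SE was 0.52 for Cdh17, 0.56 for Car3 and 0.49 for Ugt2b37, against 0.08 for Thrsp, since the fit shares 1 spread over all 6 liver groups.

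The genes known to depend on sex in adult rats were read as a list of their own. Of 11 measured male-dependent genes, 10 were higher in P90 (90.9%, against 29.5% of all genes), none was lower, and the list median was 5.20. Besides Cyp2c11, Hsd3b5, Cyp2c13, Sult1c2 and Car3, these were Mup5, a major urinary protein (4.54 ± 0.26 to 9.74 ± 0.01), Cyp2a2 (4.51), Cyp3a18 (1.51), Hsd17b2 (0.67) and Akr1c14 (0.21). Cyp3a2, another male-dependent P450, did not pass, with 12.74 ± 0.06 in P4 and 12.66 ± 0.04 in P90 (difference -0.09). Of 7 measured female-dependent genes, 5 were higher and none was lower, with a median of 0.80. Cyp2c12, the steroid disulphate hydroxylase of female liver, read 8.03, 8.91, 8.53 and 7.64 in the pups and 11.82, 11.82, 11.89 and 12.004 in the adults (difference 3.61, adjusted p = 7.5e-09). Sult2a1, a hydroxysteroid sulphotransferase, rose from 8.40 ± 0.77 to 11.42 ± 0.14, Cyp7b1 by 0.99, the prolactin receptor Prlr by 0.80 and A1bg by 0.75. Akr1b7 (0.11) and Cyp2a1 (-0.07) did not pass. Many of these probe sets had a low mean over the 24 liver arrays: 5 of the 11 male-dependent genes lay above the median of all probe sets, of which 4 were higher with a median of 0.67, and 1 of the 7 female-dependent genes, Cyp2a1, which was not called. Members of both lists were thus higher in the same 4 adult livers, with an SD of 0.02 for Cyp2c11 and 0.09 for Cyp2c12 across them. The P450s of family 2C are close relatives in sequence, and how much of a probe set's signal came from a relative was not tested.

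The cytochrome P450s of families 1 to 4 with their reductase did not move as a block. Of 42 measured genes, 20 were higher, 9 were lower and 13 were not called, with a median of 0.41. Cyp1a2, which oxidises caffeine and aromatic amines in pericentral hepatocytes, rose from 7.57 ± 0.18 to 11.58 ± 0.09, while its relative Cyp1a1 fell by 2.73. Cyp2b1, the classical phenobarbital-inducible form, read 11.80, 11.49, 12.31 and 11.82 in the pups and 7.17, 7.64, 8.08 and 7.42 in the adults, a fall of 19.4-fold. Cyp2b2 fell by 1.80 and Cyp2b3 rose by 1.79, so the members of family 2B went in opposite directions. Cyp2b1 had been low before birth (5.66 at F16, 6.69 at F22) and reached 12.14 ± 0.37 on P1, so of the 6 time points P1 and P4 were those at which it was high. Cyp2e1 (0.06), Cyp2c23 (-0.03), Cyp2d2 (-0.17) and Cyp4a3 (0.01) were near the top of the range in both groups and were not called. The largest fall of any P450 was that of Cyp17a1, the steroid 17-hydroxylase, which went from 13.37, 13.24, 13.40 and 13.34 to 8.18, 8.01, 8.09 and 8.07 and had been 8.15 at F16.

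Conjugation enzymes and transporters were higher in a larger share than the P450s (47.6%). Of 34 measured conjugation enzymes, 23 were higher (67.6%) and 4 were lower, with a median of 0.56. Among the 22 with brighter probe sets (a mean over liver above the median) 13 were higher and 4 lower, with a median of 0.42. Next to Sult1c2 and Ugt2b37, the largest rises were those of the glutathione transferase Gstm2 (4.92) and of Glyat, which couples benzoate to glycine (4.67). Gsta3, another glutathione transferase, fell from 10.42 ± 0.16 to 7.37 ± 0.19, and Ugt2b1 fell by 1.15. Of 21 measured transporters, 13 were higher (61.9%) and 4 were lower. Among the 14 with brighter probe sets 6 were higher and 4 lower, with a median of 0.13. The 25 brighter P450s gave 9 higher and 5 lower, with a median of 0.15. The canalicular pumps differed among themselves. Abcc2, which exports conjugates, rose by 1.32 and Abcg5 and Abcg8, which together export sterols, by 1.26 and 0.92. Abcb4, which exports phospholipid, fell by 1.00, Abcg2 by 1.07 and the basolateral conjugate pump Abcc3 by 2.41. The bile salt carriers Abcb11 (0.15) and Slc10a1 (-0.17) were not called.

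Among the steepest falls were genes of blood-forming cells and genes of the foetal liver. Ngp, the neutrophilic granule protein, read 12.12, 12.06, 11.95 and 12.06 in the pups and 5.55, 5.35, 5.61 and 4.96 in the adults (difference -6.68, SE 0.18, adjusted p = 2.4e-19). Ahsp, which protects free alpha-haemoglobin, went from 12.47, 12.49, 12.44 and 12.55 to 6.52, 5.57, 6.11 and 5.84. The pup arrays of both genes lay within a narrow band near the top of the range, and the adult arrays lay 5 or more log2 units lower. Stfa3, a leukocyte cystatin (-5.75), Defa5, a defensin (-5.40), Olfm4, a granule protein of neutrophils (-5.05), and Alox15, a lipoxygenase of leukocytes (-4.77), were also among the 20 largest falls. So were Car1, the carbonic anhydrase of red cells (-5.01), and Bex4 (-5.33).

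All 25 measured haemoglobin and red cell genes were lower in P90, against 26.0% of all genes, with a median of -2.82 and 23 of them falling at least 2-fold. The surface proteins Rhag (-5.74), Rhd (-4.83) and the anion exchanger Slc4a1 (-4.77) fell most after Ahsp, with the nuclear protein Hemgn (-5.47). The cytoskeleton of the red cell fell with them, by 3.97 for Sptb, 3.76 for Ank1 and 3.76 for Epb42. The haem and iron supply followed: Alas2, the first enzyme of haem synthesis in erythroid cells, fell by 3.49, the transferrin receptor Tfrc by 3.44 and the mitochondrial iron importer Slc25a37 by 3.25. The transcription factors Klf1, Gata1 and Tal1 fell by 3.08, 2.75 and 1.75. The globins themselves fell by 1.85 for Hbb and 1.80 for Hba-a3, less than the list median (-2.82). They stood at 11.47 ± 0.14 and 9.35 ± 0.19 in the adult, where circulating blood was not said to be washed out of the tissue. High values are compressed on the array, and the part of this in the fall of Hbb was not tested.

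Promoters of 4 of these genes are shown because they hold AGATAA, the core letters of a GATA site, which Gata1 can bind. Each line gives a window of 60 bases around the match, from RefSeq (build GRCr8), 5′ to 3′ on the strand of the gene, and the capitals mark the match. It ended 47 bases before the annotated start in Hemgn, 66 in Rhd, 51 in Sptb and 130 in Alas2, so the windows do not reach the start.
Hemgn (chr5:65485842-65485901, minus strand): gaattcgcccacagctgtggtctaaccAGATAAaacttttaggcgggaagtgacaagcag
Rhd (chr5:152371101-152371160, plus strand): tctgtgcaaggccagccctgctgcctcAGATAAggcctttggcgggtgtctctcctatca
Sptb (chr6:101170303-101170362, minus strand): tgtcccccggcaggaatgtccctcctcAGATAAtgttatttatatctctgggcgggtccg
Alas2 (chrX:22895287-22895346, plus strand): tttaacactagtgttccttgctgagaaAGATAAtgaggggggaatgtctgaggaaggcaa
Of the 25 red cell genes 20 had a promoter in the table, and 8 of the 20 (40%) held AGATAA or its complement within 250 bases before and 50 bases after the start, against 11.6% of all 33469 promoters. A match of letters is a description and not a site of binding.

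Of 21 measured neutrophil and myeloid progenitor markers, 18 were lower and none was higher, with a median of -1.24. Next to Ngp, the granule enzyme Mpo went from 10.98, 10.88, 11.01 and 11.24 to 6.40, 6.58, 6.42 and 6.58. The calcium-binding pair S100a8 and S100a9 fell by 4.26 and 4.16, the antimicrobial peptide Camp by 4.00 and the collagenase Mmp8 by 3.17. Ltf (0.16), Padi4 (-0.19) and Lcn2 (-0.31) did not pass. The mean over the 5 neutrophil markers that define the cell type was 10.55 to 10.68 in the pups and 6.63 to 6.90 in the adults, and over the 5 erythroid markers 11.49 to 11.73 and 7.16 to 7.38. How far these cells contribute to each fall was not tested.

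Cell division genes fell nearly without exception. Of 62 measured cell cycle and replication genes, 60 were lower (96.8%), 56 of them at least 2-fold, and the list median was -2.37. Ccne2, a cyclin of entry into S phase, read 9.34, 9.40, 9.23 and 9.52 in P4 and 5.62, 5.54, 5.62 and 5.56 in P90. Top2a, which untangles replicated DNA, read 10.22, 10.38, 10.28 and 10.47 and 7.03, 6.85, 6.83 and 6.89. Every adult array of both genes lay more than 3 log2 units below every pup array. Plk4, of centriole copying, fell by 3.66, the mitotic cyclins Ccna2 and Ccnb1 by 3.66 and 3.04, Cdk1, their kinase, by 2.83, the replicative helicase subunits Mcm6 and Mcm2 by 3.11 and 2.57, and Rrm2 of deoxynucleotide synthesis by 3.29. Cks2 was called higher by 0.27, and Ccnd1 (-0.18) was not called. Dividing erythroblasts and dividing hepatocytes both express these genes, and arrays of mixed tissue do not tell them apart.

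The cell cycle homology region, TTTGAA, is a promoter element through which genes of mitosis are held silent in resting cells. Promoters of 6 genes that fell are shown with these letters, read on either strand, in capitals. In Top2a the match is on the other strand and reads TTCAAA. Each line gives a window of 60 bases upstream of the start that holds the match, from RefSeq (build GRCr8), 5′ to 3′ on the strand of the gene.
Top2a (chr10:84473094-84473153, minus strand): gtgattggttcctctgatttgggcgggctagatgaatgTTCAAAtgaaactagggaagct
Ect2 (chr2:111966749-111966808, minus strand): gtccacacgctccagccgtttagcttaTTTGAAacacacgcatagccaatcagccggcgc
Prc1 (chr1:143659421-143659480, plus strand): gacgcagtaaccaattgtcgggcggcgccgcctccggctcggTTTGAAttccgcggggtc
Cdk1 (chr20:19265233-19265292, plus strand): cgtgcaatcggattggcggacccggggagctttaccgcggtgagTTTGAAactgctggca
Ccnb2 (chr8:79981669-79981728, minus strand): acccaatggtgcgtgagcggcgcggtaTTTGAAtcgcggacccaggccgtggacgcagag
Hmmr (chr10:25665229-25665288, minus strand): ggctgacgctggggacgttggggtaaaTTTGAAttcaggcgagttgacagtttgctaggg
In Cdk1 the match ended 10 bases before the annotated start, in Prc1 12 and in Top2a 16 bases before it, and in Ccnb2 37, in Hmmr 40 and in Ect2 149 bases before it. Of 50 genes of the list with a promoter in the table, 26 (52%) held TTTGAA or its complement, against 18.3% of all promoters. Whether the letters act as this element in any of these genes was not tested.

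Genes of foetal growth were lower in the adult. Of 13 measured oncofoetal and imprinted growth genes, 10 were lower and none was higher, with a median of -1.77. Igf2, the foetal insulin-like growth factor, read 12.93, 12.86, 12.74 and 12.80 in the pups and 6.88, 6.94, 6.83 and 6.70 in the adults (difference -6.00, SE 0.05, adjusted p = 8.1e-28). The neighbouring imprinted transcript H19 fell by 5.59, from 13.31 ± 0.05 to 7.72 ± 0.14. Afp, the albumin of the foetus, read 13.53, 13.57, 13.61 and 13.53 and 8.40, 7.66, 7.39 and 7.61. Its mean had been close to the P4 level before birth (13.49 at F16, 13.60 at F22), so the fall lay between P4 and P90. Grb10, which brakes insulin receptor signalling, fell by 5.30, the proteoglycan Gpc3 by 3.70, Mest by 3.31, Plagl1 by 1.77, Igf2bp1 by 1.65 and Dlk1 by 0.70. Hmga1 (-0.08), Hmga2 (0.09) and Cdkn1c (-0.50) did not pass.

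Genes of growth hormone action went the other way. Of 15 measured genes of the growth hormone and IGF axis, 10 were higher and 3 were lower, with a median of 0.64. The growth hormone receptor Ghr rose from 10.94, 11.09, 11.08 and 10.86 to 12.38, 12.39, 12.36 and 12.39. Igf1, the growth factor whose synthesis growth hormone induces, rose by 1.18, and Igfals, which carries IGF-I in plasma, by 1.86. Signalling components were higher by 0.64 for Stat5b, 0.64 for Socs2, 1.38 for Socs3, 0.94 for Cish and 0.51 for Bcl6, while Jak2 was lower by 0.30. The liver factor Onecut1 was higher by 0.58. The binding proteins split: Igfbp2 fell from 12.40, 11.91, 12.20 and 12.24 to 6.95, 6.79, 7.21 and 6.33 and Igfbp1 by 2.76, whereas Igfbp3 (0.17) and Igfbp4 (0.07) did not pass. Igfbp2 had climbed until P4, from 8.99 at F16 over 10.51 at F22 to 12.19.

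Genes of fat synthesis were higher in the adult. Of 24 measured genes of lipogenesis and glucose use, 19 were higher (79.2%) and 3 were lower, with a median of 0.87. Scd, the desaturase that makes oleate, read 7.40, 7.54, 7.48 and 7.24 in the pups and 12.33, 12.23, 12.31 and 12.23 in the adults, a rise of 4.86. It had been 10.91 ± 0.17 at F20, so the P4 level was the lowest of the 6 time points. Thrsp read 6.79, 6.60, 6.68 and 6.71 and 12.50, 12.51, 12.63 and 12.51. The path from citrate to fatty acid rose at each measured step, with Acly by 1.93, Acaca by 1.30, Fasn by 2.31 and, for NADPH, malic enzyme Me1 by 2.55. Acacb, which makes the malonyl-CoA that restrains fatty acid entry into mitochondria, rose by 2.94, Acss2 by 2.66, Tkfc by 2.43 and the glucose sensor Mlxipl by 1.01. Elovl6 and Scd2 fell by 1.17 and 1.77.

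Cholesterol synthesis rose as well: of 20 measured genes, 17 were higher (85%), none was lower, and the median was 0.93. The largest rises were those of Insig2, which holds back the sterol sensor (3.01, from 9.16 ± 0.13 to 12.18 ± 0.03), Dhcr7, the last step to cholesterol (2.29), Idi1 (1.696), Tm7sf2 (1.68), Cyp51 (1.52) and Msmo1 (1.15). Sqle (0.70), Fdps (0.47) and Mvk (0.07) did not pass. Of 22 measured bile acid genes, 16 were higher and 2 were lower. Cyp7a1, the rate-limiting enzyme of bile acid synthesis, read 7.98, 8.83, 9.03 and 7.88 in P4 and 10.70, 10.72, 10.65 and 10.83 in P90 (difference 2.29, adjusted p = 2.8e-06). Cyp8b1, which sets the share of cholic acid, rose by 2.66. Both had been high on P1 (11.65 ± 0.87 and 12.26 ± 0.41), so P4 was a dip between P1 and P90. Nr0b2, the repressor of bile acid synthesis, fell by 1.65. Cyp39a1 rose by 2.41, and Baat, which couples bile acids to taurine or glycine, by 1.61.

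**Figure D2:**
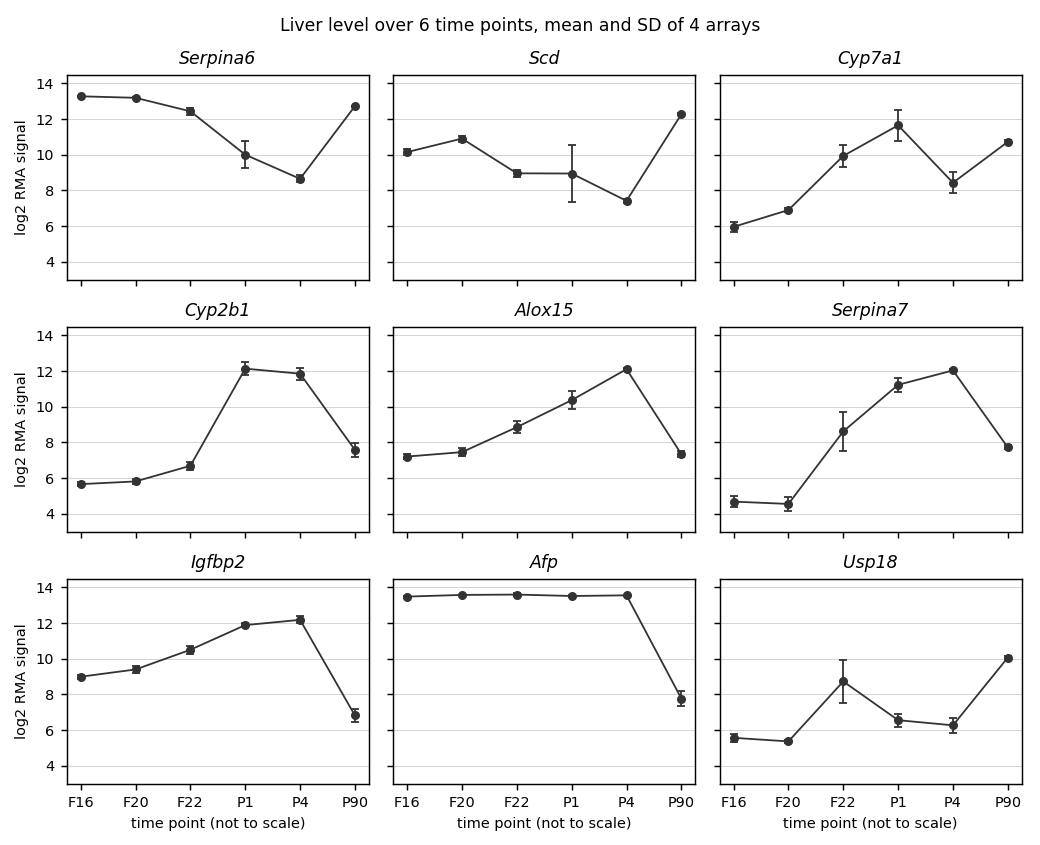
Mean log2 RMA signal over the 6 liver time points for 9 genes, with SD bars (4 arrays per point) and points spaced evenly rather than by days. Serpina6, Scd and Cyp7a1 have a low point at P4, Cyp2b1, Alox15, Serpina7 and Igfbp2 are highest around P1 and P4, and Usp18 is raised at F22 and at P90.

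Fatty acid oxidation and ketogenesis gave no common direction: of 35 measured genes, 9 were higher and 14 were lower, with a median of -0.12 that turned to 0.04 when the quantile normalisation was repeated over the liver arrays alone. Among those lower in P90 were Acat1 of ketone formation (-1.38), Decr1 (-1.13), both subunits of the trifunctional protein, Hadha (-0.49) and Hadhb (-1.09), and the receptor Ppara (-1.29). Vnn1, a pantetheinase and known Ppara target, fell from 11.87 ± 0.21 to 8.52 ± 0.07. Acot1 fell by 3.33 (SE 0.67, adjusted p = 1.9e-04), with pup arrays that spread from 7.36 to 8.74. Pdk4, which switches off pyruvate oxidation, rose by 1.99, Angptl4 by 1.66 and the hormone Fgf21 by 1.60. Cpt1a, the gate of fatty acid entry, was not called (12.28 ± 0.22 and 12.05 ± 0.02).

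The enzymes of glucose output were largely level between the ages. Of 24 measured genes of gluconeogenesis and glycogen, 5 were higher, 5 were lower and 14 were not called. Pck1 (0.25), G6pc1 (0.58) and Pc (-0.01) did not pass, nor did the glycerol channel Aqp9 (0.03). The coactivator Ppargc1a fell from 9.49, 9.11, 10.11 and 9.41 to 7.12, 7.28, 7.14 and 7.14, Got1 fell by 1.79, and the alanine aminotransferase Gpt rose by 2.14. Of 26 measured hexokinases and glycolytic isozymes, 14 were lower and 1 was higher. The foetal forms fell, Hk1 by 2.40, the glucose carrier Slc2a3 by 2.93, Ldhb by 1.83, Pkm by 1.14 and Aldoa by 1.06, while the liver pyruvate kinase Pklr rose by 1.58. Hk1 and Slc2a3 are also expressed in blood-forming cells, whose markers fell with them, and their part here was not tested.

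Amino acid breakdown rose with age: of 43 measured genes, 24 were higher (55.8%) and 4 were lower, with a median of 0.32. Tdo2 read 7.10, 7.82, 6.05 and 6.69 in the pups and 12.47, 12.39, 12.44 and 12.52 in the adults, and its pup arrays spread over more than 1 log2 unit. Further along the tryptophan path Acmsd rose by 3.44, Kynu by 1.09 and Kmo by 0.69. Hal, of histidine breakdown, rose by 1.83, Dao by 2.12 and Gnmt by 1.36. Tyrosine aminotransferase Tat (0.16) and serine dehydratase Sds (-1.13, pup arrays 7.77 to 10.25) did not pass. Of 14 measured urea cycle and ammonia genes, 3 were higher and 4 were lower. Cps1 (0.08), Otc (0.21), Asl (-0.18) and Arg1 (-0.05) were not called and Ass1 was higher by 0.46. Oat, the pericentral ornithine aminotransferase, rose from 8.08 ± 0.30 to 10.92 ± 0.11.

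**Figure D3:**
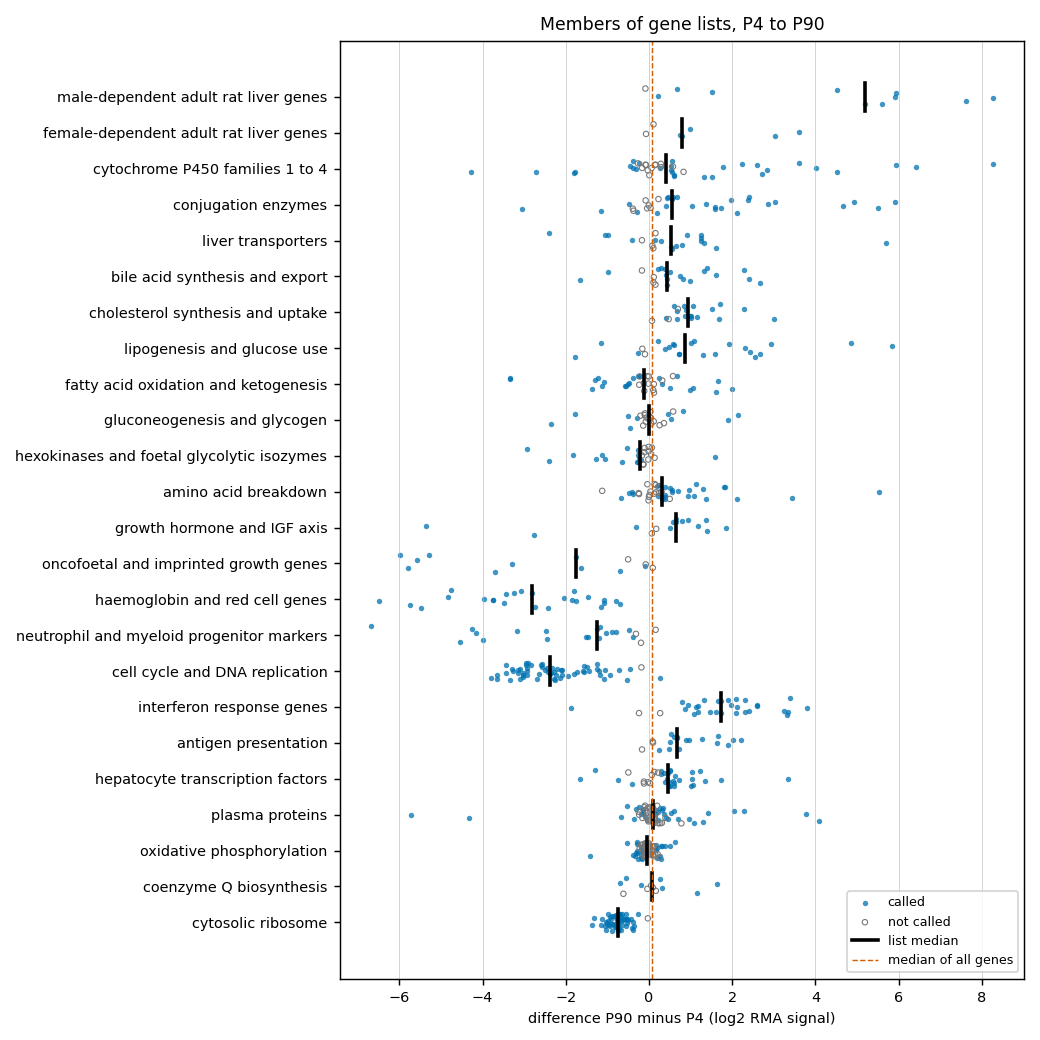
Difference P90 minus P4 on the log2 scale for every measured member of 24 gene lists, each point 1 gene and each bar the list median, with filled points for called genes and a dashed line at the median of all genes, 0.07. The cell cycle (median -2.37) and red cell (median -2.82) lists lie almost wholly below 0 and the interferon list (median 1.74) almost wholly above it.

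Interferon response genes were higher in the adult liver as a group. Of 31 measured genes, 28 were higher (90.3%), 25 of them at least 2-fold, 1 was lower and the median was 1.74. Among the 10 members with brighter probe sets 8 were higher, with a median of 1.13. Usp18, which restrains interferon signalling and also removes ISG15 from proteins, read 6.51, 5.87, 6.76 and 5.93 in P4 and 10.11, 9.98, 10.02 and 10.17 in P90 (difference 3.80, adjusted p = 3.3e-09). Oas1a, a sensor of viral RNA, rose from 6.94, 6.44, 7.25 and 6.90 to 10.34, 10.28, 10.23 and 10.24. In both genes all adult arrays lay above all pup arrays. The chemokines Cxcl9 and Cxcl10 rose by 3.31 and 2.60, the antiviral GTPases Mx1 and Mx2 by 2.30 and 3.34, tetherin Bst2 by 2.60, the transcription factor Irf7 by 2.30 and Isg15 by 1.73. Rsad2, viperin, fell from 9.54 ± 0.24 to 7.65 ± 0.09, and Ifi47 (0.27) and Ifit1 (-0.24) did not pass. P4 was not the only low point of these genes, since Usp18 read 5.57 ± 0.24 at F16, 8.73 ± 1.20 at F22 and 6.55 ± 0.37 at P1. The F22 arrays varied far more among themselves than the adult arrays, whose SD was 0.09.

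The promoters of 6 of these genes are shown because they hold GAAANNGAAA, the letters of an interferon-stimulated response element, read on either strand. Each line gives a window of 60 bases that holds the match, in capitals, from RefSeq (build GRCr8), 5′ to 3′ on the strand of the gene. The match ended 31 bases before the annotated start in Oas1a, 49 in Ifi44l and Oas1b, 59 in Irf7, 121 in Bst2 and 233 in Cxcl10.
Oas1a (chr12:41330400-41330459, plus strand): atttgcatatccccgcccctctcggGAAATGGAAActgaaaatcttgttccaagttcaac
Bst2 (chr16:18255064-18255123, minus strand): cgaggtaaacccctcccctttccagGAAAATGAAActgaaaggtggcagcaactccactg
Cxcl10 (chr14:15988816-15988875, plus strand): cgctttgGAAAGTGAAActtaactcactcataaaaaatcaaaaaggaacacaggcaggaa
Irf7 (chr1:205800058-205800117, minus strand): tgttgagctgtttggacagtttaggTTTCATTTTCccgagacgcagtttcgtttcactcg
Ifi44l (chr2:243328639-243328698, plus strand): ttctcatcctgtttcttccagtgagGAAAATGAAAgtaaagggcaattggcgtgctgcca
Oas1b (chr12:41395877-41395936, minus strand): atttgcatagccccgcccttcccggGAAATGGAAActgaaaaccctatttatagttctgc
Oas1a and Oas1b, which are related genes, have the same letters in the match. The letters were found in 15 of the 23 members with a promoter in the table (65.2%) and in 3.92% of all promoters. Whether they act as the element was not tested. The letters GAA are shared with TTTGAA, so the matches of both elements can overlap.

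**Figure D4:**
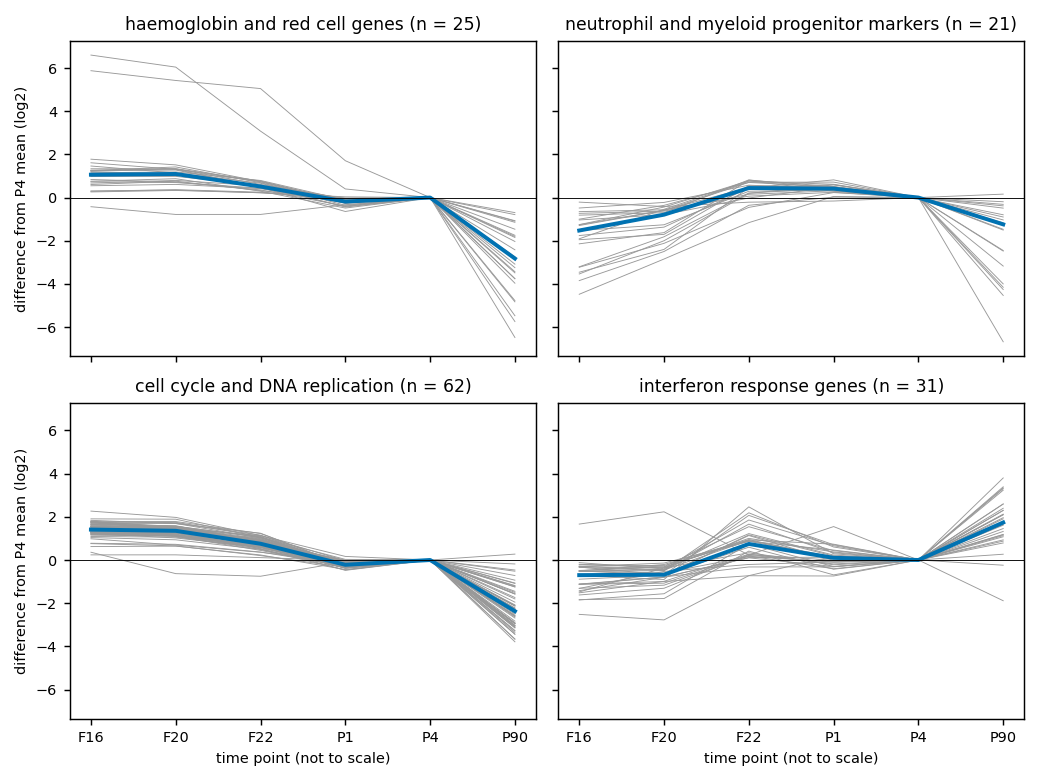
Mean of each measured member of 4 gene lists at the 6 liver time points, as a difference from its own P4 mean on the log2 scale; thin lines are genes and the thick line is the list median. Red cell and cell cycle genes drop below their P4 level in P90, neutrophil markers climb until F22 and are lower again in P90, and interferon genes are highest in P90 with a smaller, earlier rise at F22.

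Antigen presentation was higher too: of 19 measured genes, 16 were higher (84.2%) and none was lower, with a median of 0.67. The immunoproteasome subunits Psmb9 and Psmb8 rose by 2.22 and 2.03, the class II genes RT1-Da and Cd74 by 1.90 and 1.66, the peptide transporter Tap1 by 0.95 and the class I light chain B2m by 0.73. P4 replicate 3 lay above the other pup arrays for Psmb9 (8.66 against 7.91 for the next), RT1-Da (8.95 against 7.82) and B2m, and without it 17 members were higher and none was lower. Cells that present antigen were not all higher by their markers. Of 21 measured Kupffer cell and macrophage markers, 3 were higher and 13 were lower. Vsig4, a complement receptor of resident macrophages, rose from 6.85, 7.04, 8.58 and 7.12 to 9.93, 10.23, 9.89 and 10.28, and Cd5l by 1.40 and Siglec1 by 0.59. Lyz2 fell by 1.59, Cd163 by 0.73 and Csf1r by 0.66, while Clec4f (0.31) was not called.

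Of 33 measured T and NK cell markers, 20 were higher and 4 were lower, but the shifts were small, with a median of 0.27 and none of the rises 2-fold. Most of these probe sets were dim: 3 of the 33 lay in the brighter upper part of all probe sets (a mean over liver above the median), and of these none was higher and 1 was lower. The mean over the 5 markers that define these cells was 6.60 to 6.69 in the pups and 6.06 to 6.37 in the adults, so it was lower while 3 of the 5 were called higher. Klrk1 (0.93), Prf1 (0.59), Gzmk (0.53) and Cd2 (0.41) were higher, whereas Nkg7 fell by 2.60 and Cd226 by 1.91. Of 16 measured B and plasma cell markers, 2 were higher and 10 were lower. Jchain, which joins immunoglobulin A and M of plasma cells, rose from 6.43, 6.08, 6.32 and 5.93 to 8.85, 9.68, 8.75 and 9.69, while the B cell progenitor genes Ebf1 (-1.22), Vpreb3 (-0.78) and Rag1 (-0.70) were lower. Jchain and Pigr, which handle the same immunoglobulin, were thus both higher in all 4 adult arrays.

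In the lists of supporting tissue more genes were lower than higher. Of 29 measured collagen and matrix genes, 18 were lower (62.1%) and 2 were higher (6.9%), with a median of -0.40. Over all genes 26.0% were lower and 29.5% higher. Postn (-2.14), Thbs1 (-2.13), Dcn (-1.65) and Fbn1 (-1.10) were lower, Col3a1 (0.07) was not called, and Lox, which crosslinks collagen, was higher, from 7.29 ± 0.30 to 9.76 ± 0.24. Of 25 endothelial markers 4 were higher (16%) and 9 lower (36%). Of 21 stellate cell and fibroblast markers 2 were higher (9.52%) and 8 lower (38.1%). Of 17 cholangiocyte and hepatoblast markers 4 were higher (23.5%) and 6 lower (35.3%). Dpt, of the fibroblasts, rose by 1.96, and Rgs5, of pericytes, by 1.38. Cd24 and Prom1, progenitor markers, fell by 1.99 and 1.86.

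Genes with a known zone in the liver lobule, pericentral or periportal, were read next. Of 27 measured, 10 were higher and 4 were lower, with a median of 0.08. Besides the pericentral Cyp1a2 and Oat, those higher included the glutamate carrier Slc1a2 (2.82), the Wnt deacylase Notum (2.62) and Tbx3 (1.34) of the pericentral side and Hal of the periportal side. The Wnt targets Axin2 (0.08), Lgr5 (-0.33) and Rnf43 (-0.37) did not pass. Whether the zones grew or the cells in them changed was not tested.

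Plasma proteins had no common direction. Of 68 measured plasma protein genes, 35 were not called, 21 were higher and 12 were lower, with a median of 0.09. Alb (-0.02), Ttr (-0.00), Tf (-0.04), Apob (0.03) and Fgb (0.05) were not called, at levels close to the upper end of the array's range. Whether the array was saturated there was not tested. Repeating the quantile normalisation over the liver arrays alone raised the number called higher to 35, Alb among them (0.22). A few carriers differed by far more. Serpina6, which carries corticosteroids, read 8.55, 8.48, 8.64 and 8.92 in P4 and 12.72, 12.72, 12.74 and 12.72 in P90, after 13.28 ± 0.03 at F16 and 10.002 ± 0.75 at P1. Serpina7, which carries thyroid hormone, ran the other way, from 4.68 ± 0.32 at F16 to 11.99, 12.11, 11.996 and 12.06 in P4 and 7.60, 7.67, 7.74 and 7.86 in P90. A2m, the protease inhibitor of the foetal and inflamed rat, fell from 12.92 ± 0.05 to 7.19 ± 0.05. The acute-phase protein Orm1 rose by 3.79, Apoa2 by 2.27 and Apoa5 by 2.04, and Apoa1 fell by 0.66.

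Of 36 measured transcription factors of the hepatocyte, 24 were higher (66.7%) and 4 were lower, with a median of 0.46. Esr1, the oestrogen receptor, stood between 6.07 and 6.28 at all 5 earlier time points and read 9.62, 9.63, 9.62 and 9.59 in the adults. Zhx2, which is known to repress Afp and H19, rose from 6.84, 6.89, 6.92 and 6.81 to 8.58, 8.64, 8.54 and 8.58, and Zbtb20, another known repressor of Afp, by 1.24. The core factors shifted little, by 0.48 for Hnf4a, 0.28 for Cebpa and 0.72 for Foxa2. Cebpb rose by 1.06, Foxa1 by 1.03, Foxa3 fell by 0.74 and the drug sensor Nr1i2 by 0.41.

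Clock genes differed widely, in both directions. Of 20 measured genes, 9 were higher and 9 were lower. Nr1d1, the repressor REV-ERB alpha, read 8.33, 7.84, 8.29 and 7.87 in the pups and 11.03, 10.92, 10.93 and 10.91 in the adults. Per3 read 9.99, 9.89, 9.83 and 10.02 and 8.12, 7.92, 7.94 and 7.83, Per1 fell by 1.86 and Per2 by 1.69. The activators rose, Npas2 by 2.08, Clock by 0.65 and Bmal1 by 0.46, with Nfil3 (1.25), Bhlhe40 (1.16), Nampt (0.60), Nr1d2 (0.57) and Dbp (0.44). Usp2 (-1.36), Cry1 (-0.88), Cry2 (-0.40), Por (-0.38), Csnk1e (-0.23) and Csnk1d (-0.14) were lower, and Tef (-0.12) and Bhlhe41 (-0.12) did not pass. Small shifts among these were not stable. The call of Bmal1 was lost without P4 replicate 3 (0.37, adjusted p = 0.11), P4 replicate 4 (0.36, adjusted p = 0.11) or P90 replicate 1, 2 or 4 (adjusted p 0.055 to 0.063). That of Dbp was lost without any array except P4 replicate 4 and P90 replicate 2 (lowest 0.35 without P4 replicate 2, adjusted p = 0.14). That of Csnk1d was lost without P4 replicate 1 or P90 replicate 2 or 4 (adjusted p 0.082 to 0.11), and that of Csnk1e without P4 replicate 1 or 4 or P90 replicate 2, 3 or 4 (adjusted p 0.051 to 0.12). Csnk1d and Csnk1e were also not called after centring or repeated quantile normalisation (adjusted p 0.090 to 0.21). These transcripts swing over the day in adult liver, the hour of sampling is not given, and age and hour cannot be told apart.

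**Figure D5:**
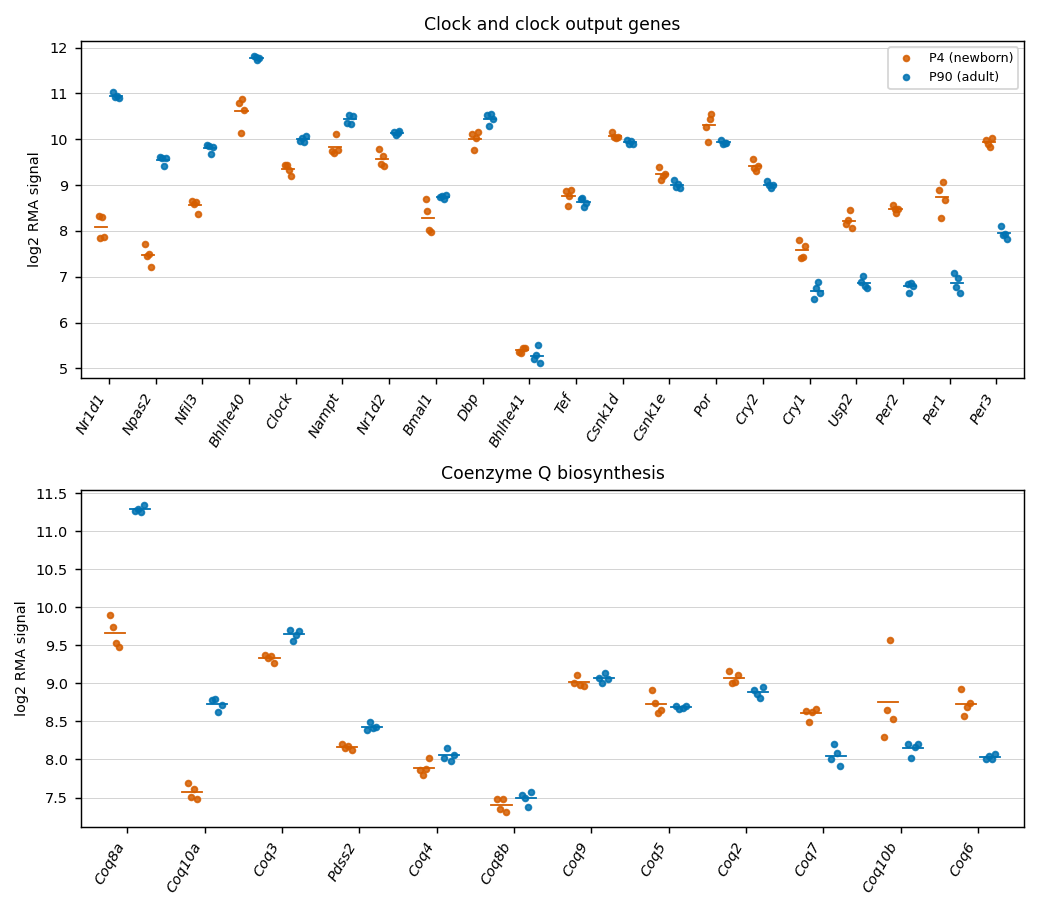
Log2 RMA signal of the measured clock genes (top) and coenzyme Q genes (bottom) in the 4 P4 and 4 P90 arrays, ordered by their difference, each point 1 array. Nr1d1 and Npas2 are higher and Per1, Per2 and Per3 lower in all P90 arrays, and among the coenzyme Q genes Coq8a shows the largest shift.

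Of 35 measured glucocorticoid and stress response genes, 15 were higher (42.9%) and 10 were lower (28.6%), against 29.5% and 26.0% of all genes. Among the 26 with brighter probe sets 10 were higher and 9 lower, with a median of 0.08. Of all 7655 brighter probe sets 2069 were higher and 3357 lower. The immediate-early genes Dusp1, Jun and Junb were higher by 1.77, 1.46 and 1.15, and the glucocorticoid targets Fkbp5 and Zbtb16 were lower by 0.92 and 0.84. Of 15 measured thyroid hormone response genes, 8 were higher (53.3%) and 3 were lower (20%), with Thrsp at the top and Serpina7 at the bottom. Of 21 measured iron genes, 6 were higher (28.6%) and 9 were lower (42.9%). Hamp, the iron hormone hepcidin, was higher by 0.57, Hfe by 1.74 and Hjv by 0.86, while the iron exporter Slc40a1 was lower by 0.62.

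Mitochondrial genes are the subject of the series. Of 73 measured genes of oxidative phosphorylation, 44 were not called, 11 were higher (15.1%) and 18 were lower (24.7%). Over all genes 29.5% were higher and 26.0% lower. The list median was -0.06 beside 0.07 for all genes. The balance depended on the scaling: after quantile normalisation repeated over the liver arrays 23 were higher and 10 lower, with a median of 0.03, and without P90 replicate 4 the number higher was 7. Only 1 of them changed 2-fold, Atp5if1, the inhibitor of ATP synthase, which fell from 11.01, 10.83, 10.99 and 10.99 to 9.49, 9.53, 9.56 and 9.53. The subunits Atp5f1a of ATP synthase (0.01), Cox4i1 of complex IV (-0.10) and Ndufs1 of complex I (-0.10) were not called. Of 31 measured genes of the citric acid cycle and pyruvate oxidation, 9 were higher (29%) and 12 were lower (38.7%). Idh2 was lower by 1.37 and Pdk3 by 2.79. The adenine nucleotide carrier Slc25a4, chosen after its values were seen, fell by 4.54, from 11.80 ± 0.11 to 7.26 ± 0.14.

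Of 69 measured mitochondrial ribosome genes, 33 were lower (47.8%) and 8 were higher (11.6%), with a median of -0.13. Over all genes 26.0% were lower and 29.5% higher. Of the 69 genes 66 had brighter probe sets, with 34 lower and 8 higher. Of all 7655 brighter probe sets 3357 were lower and 2069 higher, so the background of this list leaned to lower. The repeated quantile normalisation gave 29 lower and 15 higher members. Mrpl23 (-1.42) was the single member with a 2-fold fall. Of 19 regulators of mitochondrial biogenesis, 9 were lower (47.4%) and 4 were higher (21.1%), and 17 of the 19 had brighter probe sets. Ppargc1a was the lowest, followed by Polg2 (-1.36), Nrf1 (-0.88) and Sirt3 (-0.66), and Tfam was lower by 0.48. The cytosolic ribosome moved as a block: 65 of 66 measured genes (98.5%) were lower, 8 of them at least 2-fold, with a median of -0.76 and a range from -1.38 for Rps12 to -0.03 for Rpl18, the single member not called.

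Coenzyme Q carries electrons between the respiratory complexes and is made in the mitochondrion by a complex of COQ proteins. Of its 12 measured genes, 4 were higher (33.3%) and 3 were lower (25%), against 29.5% and 26.0% of all genes, with a median of 0.07. Coq8a, the atypical kinase of the complex, read 9.90, 9.74, 9.53 and 9.48 in the pups and 11.27, 11.29, 11.25 and 11.34 in the adults, a rise of 1.62 (SE 0.10, adjusted p = 2.3e-12), and the 2 groups did not overlap. It had stood at 7.55 ± 0.09 at F16 and 8.46 ± 0.19 at F22, so the adult level was the highest of the 6 time points. Coq10a, a coenzyme Q binding chaperone, rose by 1.15, the methyltransferase Coq3 by 0.31 and Pdss2, of the side chain synthase, by 0.26. The hydroxylases Coq6 and Coq7 were lower by 0.70 and 0.55, and Coq2, which joins ring and side chain, by 0.19. Coq2 was no longer called after either other scaling (adjusted p = 0.063 with centred arrays and 0.16 with repeated quantile normalisation). Coq4 (0.16), Coq8b (0.09), Coq9 (0.05), Coq5 (-0.04) and Coq10b (-0.62) did not pass. The pup arrays of Coq10b read 8.29, 8.66, 9.57 and 8.53, so a single array lay above the rest.

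Of 44 measured peroxisome genes, 19 were higher and 10 were lower. Hao2, a hydroxyacid oxidase, rose from 7.12 ± 0.44 to 11.92 ± 0.06. Abcd2, a carrier of very long fatty acids into the peroxisome, fell from 11.09, 11.10, 10.51 and 11.07 to 5.29, 5.36, 5.38 and 5.30, after it had risen from 6.09 at F16. Far1, of ether lipid synthesis, fell by 2.04. Of 37 measured antioxidant genes, 21 were higher and 9 were lower, with a median of 0.24. Nqo1 (1.80), Sod2 (1.03), Prdx5 (0.99), Sod1 (0.57) and Cat (0.45) were higher, and Prdx2, which is abundant in red cells, was lower by 1.84.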

How the data were processed

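Total RNA of rat liver tissue was hybridised to Affymetrix Rat Gene 1.0 ST arrays. The values analysed are log2 signals of 29214 probe sets, which the authors made by robust multi-array averaging in Affymetrix Expression Console (version not given in the sources used here) and deposited as a table of 54 arrays. That step corrects background, sets the probe signals of arrays normalised together to 1 distribution and summarises probes. A global shift in RNA per cell is thus lost, and the highest and lowest values are compressed. Liver was normalised apart from muscle. Medians over the probe sets with a single symbol still differed, from 7.77 to 7.84 in the P4 arrays and from 7.64 to 7.66 in the P90 arrays. The foetal and P1 arrays lay at 7.75 to 7.85, so P90 alone stood below the other liver groups. The reason was not tested, and age and any difference in the handling of the arrays cannot be told apart. No genome build is given in the sources used here. Of the probe sets, 13581 carry no gene symbol and 323 carry several, and both were left out. The other 15310, for 14506 genes, were tested, and 15279 of them matched a current gene record by gene ID.

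Groups came from the sample titles. The 24 liver arrays, 4 at each of 6 time points, were fitted in limma 3.58.1 (R 4.3.3) with lmFit and eBayes without covariates, and the contrast P90 minus P4 was adjusted by Benjamini-Hochberg over all 15310 probe sets. The adult liver arrays were left out of the study's own statistics, so this contrast is not in its methods. A gene is described by its probe set with the highest mean over liver; a second called probe set went the other way for 5 genes, of which Pex6 and Rpl6 are members of the lists, and none of the 5 is named with a value. All given SE, p and counts come from this fit unless another setting is named. Each SE and p rests on a moderated spread per probe set that is pooled over all 6 liver groups (18 residual degrees of freedom). It is not the spread of the P4 and P90 animals alone.

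In simulated data of the same design the fit recovered 85.1% of 67 probe sets changed by 0.5 and 100% of 67 changed by 1 (log2), of 15310, with 10 false calls. The simulation changed far fewer probe sets than were called in the data and gave each an equal spread in all groups. Its recovery therefore does not carry over directly to the data. Arrays give no read depth, and 4 arrays a group limit the precision. Deviations of same-numbered P4 and P90 arrays from their group means correlated at -0.16 to 0.15. Differently numbered arrays were not compared, so these values cannot tell whether the numbers pair arrays.

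The named genes are the 20 largest rises and the 20 largest falls among called genes without overlap between groups, the leading members of each of 42 gene lists, members that complete a step or a pair or did not pass, and all measured sex-dependent, growth hormone, coenzyme Q and clock genes. The comparison, the members and the lists were chosen with earlier results of these data known. Promoters are RefSeq sequences of build GRCr8 and were searched on both strands. The alternatives are given in the closing section.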

Additional observations from a re-analysis of the deposited data

Results flagged for a closer look

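For 329 named genes the 4 arrays of P4 and the 4 arrays of P90 were searched for an array that stood apart from the other 3, by the gap to the next array over the group's range (Dixon's test). Such an array was found in 37 of 658 groups (5.62%), 28 of them in P4 and 9 in P90, and chance gives about 1 in 20. Each value is a log2 signal, followed by the next array's.

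P4 replicate 1 stood apart for Csnk1d (10.15, next 10.05), Cyp2d2 (13.11, next 13.01), Idh2 (11.23, next 11.05), Insig2 (9.36, next 9.11), Notum (6.03, next 6.25) and Tkfc (8.76, next 8.98). P4 replicate 2 stood apart for Atp5if1 (10.83, next 10.99), Cish (7.97, next 8.59), Hamp (12.01, next 12.26), Ldhb (7.85, next 9.13) and Mest (10.09, next 10.01). P4 replicate 3 stood apart for Abcd2 (10.51, next 11.07), B2m (12.94, next 12.65), Bcl6 (6.85, next 7.13), Csf1r (11.03, next 10.51), Igfbp3 (8.96, next 9.20), Nampt (10.12, next 9.77), Psmb9 (8.66, next 7.91), RT1-Da (8.95, next 7.82) and Vsig4 (8.58, next 7.12). P4 replicate 4 stood apart for Abcb4 (10.96, next 11.31), Ank1 (10.70, next 10.41), Hk1 (9.85, next 9.58), Mvk (8.77, next 8.82), Nqo1 (8.48, next 8.32), Slc40a1 (11.91, next 12.09), Slc4a1 (12.43, next 12.25) and Tfrc (12.02, next 11.84).

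P90 replicate 1 stood apart for Slc41a2 (12.50, next 12.45). P90 replicate 2 stood apart for Coq10b (8.02, next 8.17), Cyp2c11 (12.99, next 12.95), Ppargc1a (7.28, next 7.14) and Sod1 (12.26, next 12.19). P90 replicate 3 stood apart for Npas2 (9.42, next 9.59), Slc2a3 (5.12, next 5.41) and Thrsp (12.63, next 12.51). P90 replicate 4 stood apart for Esr1 (9.59, next 9.62).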

How the results depend on the processing

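The number of probe sets called was 4407 higher and 4153 lower, of which 4274 and 3771 are the described probe sets of genes. It stayed within 1.5 times with only the 8 arrays, with an unadjusted p (9331 in all), with trended and robust variances, after centring or repeated quantile normalisation, with array weights and with 1 value per gene. Centred arrays gave 5785 higher and 3682 lower, and repeated quantile normalisation 5040 higher and 3595 lower. Asking for a 2-fold difference left 524 higher and 810 lower, and the brighter probe sets alone (7655 tested) gave 2069 higher and 3357 lower, so that fewer were higher than lower there. Leaving out 1 array gave 3721 to 4650 higher and 3838 to 4316 lower. No call common to both fits changed its sign, apart from 1 probe set under repeated quantile normalisation. That scaling moved the median by 0.06 and turned Alb (0.22), Pc (0.21) and Tf (0.11), called higher there and not called before. It also gave 14 members called higher (9 before) in the citric acid cycle and 8 (5 before) in gluconeogenesis. Small counts of members called higher moved in single alternatives, to 7 or 8 (from 4) for endothelial markers, 5 or 6 (from 3) for the urea cycle, 4 (from 2) for stellate cells and 1 (from 0) for neutrophil markers, the last with centred arrays or without P4 replicate 4. The replicate block (4339 higher, 4133 lower), with numbers that are not known to pair the animals, called 8361 of the same probe sets. Among the named genes it ended the call of Dbp. The cause was not tested. With 4 arrays a group, differences under about 0.5 may be missed, although some smaller ones were called.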
